A study of Caenorhabditis elegans with 2 samples.

Results

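The worm genes, F22D6.8, ekl-1, F31E3.6, B0393.8 and dolk-1, lie beside copies of a nearly identical DNA sequence at which the tagged protein C04F5.9 was recovered. They were selected on measured values, namely strong peaks of the optimal list near these copies, so their own peak values are a description and carry no test. They are 5 gene symbols, or 6 gene IDs because the annotation gives B0393.8 to 2 genes, of 19973 protein-coding genes. For each gene, all summits in the gene and within 8 kb of it were taken from the authors' 4 region lists in ce11. The optimal list placed 14 of its 1205 peaks there.

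Chromatin immunoprecipitation sequencing (ChIP-seq) recovers the DNA bound by a protein and shows where in the genome it came from. The animals were whole hermaphrodites of strain OP525, which is unc-119(tm4063) III and carries the transgene wgIs525, encoding C04F5.9 with GFP and FLAG at its C-terminus. C04F5.9 is annotated in RefSeq as a protein with a C2H2-type domain, a zinc finger found in many DNA-binding proteins. Larvae were starved after bleaching and collected as first-stage larvae 6 hours after synchronization, and an antibody against GFP was used. The 2 biological replicates form the only group, with no second condition, and the promoter that drives the transgene is not given in the labels. Replicate 1 had 30000 listed regions, replicate 2 had 28005, and the combined list of 30000 gave the 1205 optimal peaks, which are 4.02% of it. The number of reads behind them is unknown. Signal is the authors' value and is compared only within a list, and rank is the order by signal from the highest.

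The members differ in what they encode. The ekl-1 gene (WBGene00009052) encodes a Tudor domain protein that acts with RNA-dependent RNA polymerases and the helicase DRH-3 in making small RNAs in the germ line. The dolk-1 gene (WBGene00044233) encodes dolichol kinase, which makes the lipid carrier on which N-linked sugar chains are assembled. F22D6.8 (WBGene00043279), F31E3.6 (WBGene00017952) and B0393.8 are short genes to which no role is given here. One of the genes listed as B0393.8 (WBGene00012146) is VB0393L.2 in RefSeq, and WBGene00007173 is B0393.8 in both annotations. An inverted repeat is a sequence followed by its own reverse complement. Its arms can pair with each other in single strands, and reads from identical arms cannot be placed by sequence alone, so such repeats are a known difficulty in read mapping.

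The near-identical sequence occurred as 8 long copies of 366 to 482 bp, arranged as 4 inverted pairs. A copy here is a genome stretch at least 90% identical over at least 100 bp to the sequence within 200 bp of an optimal summit in the member windows. The ekl-1 and F22D6.8 pair had its copies at the 3′ end of ekl-1 and the 5′ end of F22D6.8. The other pairs lay at F31E3.6, around B0393.8 and inside an intron of Y56A3A.7, upstream of dolk-1. Each copy is called left or right by its lower or higher coordinate, and the members of the ekl-1 and F22D6.8 pair are called by those genes. The outer end of a copy is the end away from its partner. In all 4 pairs it was the same end of the near-identical sequence.

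The outer ends are shown for the 5 long copies that lie outside annotated UTRs on chromosome III, because they show where the shared sequence begins. Each is read inward from outside the pair, in WBcel235 (ce11). The capitals are the first 28 bases of the shared stretch and the 20 lower-case bases are the flank.
B0393.8 left copy, chrIII:4749304-4749351, plus strand: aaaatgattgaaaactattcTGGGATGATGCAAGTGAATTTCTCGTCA
B0393.8 right copy, chrIII:4752803-4752850, minus strand: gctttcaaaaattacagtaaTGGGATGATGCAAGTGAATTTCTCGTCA
F31E3.6 right copy, chrIII:6985412-6985459, minus strand: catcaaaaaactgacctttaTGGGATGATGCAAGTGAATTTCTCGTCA
dolk-1 left copy, chrIII:11939326-11939373, plus strand: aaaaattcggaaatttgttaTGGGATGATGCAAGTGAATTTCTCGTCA
dolk-1 right copy, chrIII:11940335-11940382, minus strand: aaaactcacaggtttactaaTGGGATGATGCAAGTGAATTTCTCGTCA
The 5 stretches in capitals were the same base for base, and the flanks outside them differed. A second stretch, 51 bases centred 220 bases inward from the outer end in the left copies, shows where copies do differ. Here the capitals mark bases that were not the same in all 8 long copies.
B0393.8 left copy, chrIII:4749519-4749569, plus strand: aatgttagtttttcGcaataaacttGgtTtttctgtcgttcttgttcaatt
F31E3.6 right copy, chrIII:6985183-6985233, minus strand: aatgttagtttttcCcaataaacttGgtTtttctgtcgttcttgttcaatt
dolk-1 right copy, chrIII:11940117-11940167, minus strand: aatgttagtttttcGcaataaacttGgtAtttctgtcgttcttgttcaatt
The B0393.8 right and dolk-1 left copies had the letters of the B0393.8 left copy over this stretch. The middle capital is a base at which the 6 copies at F31E3.6, B0393.8 and dolk-1 were alike and the ekl-1 and F22D6.8 copies differed from them, as they did at 13 positions of the shared stretch in all.

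In an alignment of the 8 long copies the shared stretch spanned 387 columns, and all copies had the same base in 339 of them. It was taken from the first to the last run of 10 identical columns. The 6 copies at F31E3.6, B0393.8 and dolk-1 were 98.9 to 100% identical to each other, counting bases aligned without a gap. The ekl-1 and F22D6.8 copies were 97.9% identical to each other and 94.9 to 95.7% identical to the other 6. The B0393.8 copies differed from each other by no base but by a gap of 10, the F31E3.6 copies by 1 base and a gap of 11, and the dolk-1 copies by 3 bases and no gap.

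**Figure D1:**
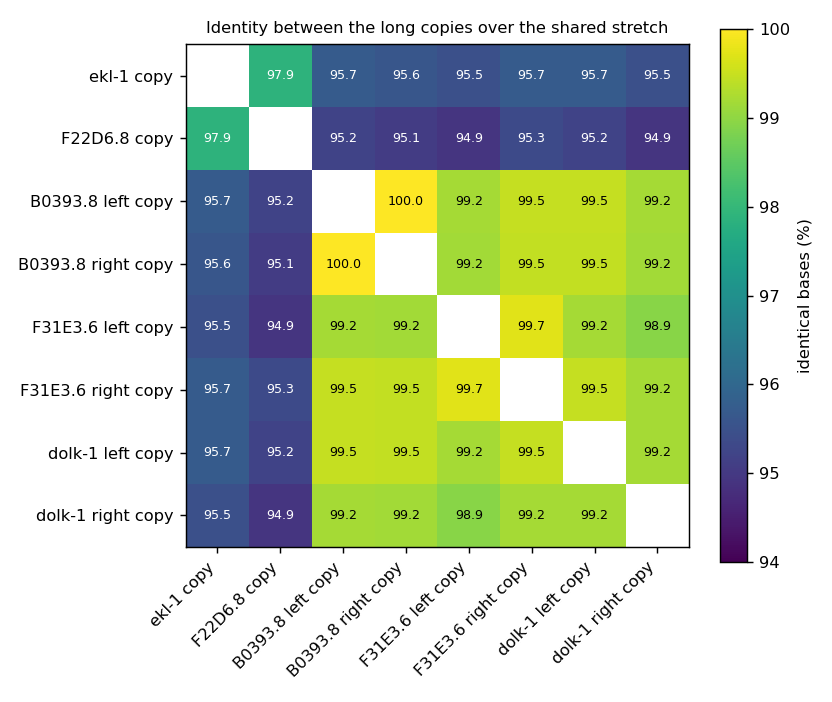
Identity in percent between the 8 long copies over the shared stretch, by colour and printed value. The ekl-1 and F22D6.8 copies form a group at 97.9%, and the other 6 copies lie between 98.9 and 100%.

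The pairs differed in how far the repeat ran inward. At B0393.8 it was a palindrome without a spacer, aligned to its own reverse complement over 3520 bp at 98.3% identity, with both B0393.8 genes inside. At F31E3.6 each arm ran for 1396 aligned bp at 98.5% identity with 562 bp between the arms. The ekl-1 and F22D6.8 arms ran for 615 bp at 92.8% with 556 bp between them. The dolk-1 arms were the shortest, at 391 bp and 99.0%, with 237 bp between them.

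Short genes formed part of the repeats themselves. The coding sequences of F31E3.6 and of both B0393.8 genes were each 399 bp in exons of 47, 101 and 251 bp. The B0393.8 sequences were identical over all 399 bp and were 99.5% identical to that of F31E3.6. A pseudogene (WBGene00009055, transcript F22D6.14) begins between ekl-1 and F22D6.8 and overlaps the 3′ end of F22D6.8. It matched F31E3.6 at 98.1% over 266 bp. F22D6.8, whose first coding exon is also 47 bp, matched F31E3.6 over 58 bp only, at 93.1%. The right arm at F31E3.6 held the third exon again at 98.8% identity, at chromosome III 6984468 to 6984719, where no gene is annotated. The last part of that exon, from base 114 on, also recurred at 26 further places in the genome at 134 to 139 bp. None of these 26 had an optimal summit within 100 bp and 1 had a combined-list summit. The share over other places of this size was not counted, so these counts are a description only.

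At the ekl-1 and F22D6.8 pair both copies carried strong peaks. F22D6.8 lies at chromosome I 7098977 to 7099866 on the minus strand and ekl-1 at 7095486 to 7098400 on the plus strand. The peak at F22D6.8 (7099673 to 7100113, summit 7099760) had a signal of 1994 and rank 12. Its summit was in the 5′ UTR of F22D6.8, 106 bp inside the gene, and 243 bp upstream of F22D6.9. It was 441 bp wide, and the replicates held it at rank 13 each, with signals of 1383 and 618.4. The replicate summits lay 10 bp and 1 bp from the combined summit.

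The peak at the ekl-1 copy (7097911 to 7098491, summit 7098291) had a signal of 1918 and rank 13. The annotation has the 3′ UTR of ekl-1 at this summit, 2805 bp from the 5′ end of the gene, and 358 bp upstream of the pseudogene. At 581 bp it was the widest of the 14 optimal peaks. Replicate 2 held it as a single region at rank 12, with a signal of 680.5 and the same summit. Replicate 1 held 2 regions there, at rank 12 with a signal of 1412 and at rank 14 with a signal of 1346, whose summits lay 16 and 229 bp from the outer end of the copy. The combined summit lay at 116 bp, between them.

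The ekl-1 promoter carried a separate peak away from the copies. It had rank 18, a signal of 1011 and a summit 461 bp upstream of ekl-1 and 302 bp upstream of prpf-4, which encodes a pre-mRNA processing factor. A further peak at rank 49, with a signal of 408.8, lay within 8 kb of ekl-1 but not of F22D6.8, between nars-1, encoding asparaginyl-tRNA synthetase, and nduf-6. The window of ekl-1 thus held 4 optimal summits and that of F22D6.8 held 3 of the same ones. Summits at the copies were 1469 bp apart, and the promoter summit was 3266 bp from the nearer of them.

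At F31E3.6 (chromosome III 6982081 to 6983062, plus strand) the left copy covered the start of the gene. It carried 2 optimal peaks 208 bp apart. The first (6981817 to 6982255, summit 6982148) had rank 15 and a signal of 1156, with its summit in the 5′ UTR 67 bp into the gene and 460 bp upstream of the non-coding RNA gene F31E3.8. The replicates ranked it 16 and 15, with signals of 794.8 and 358.6. The second (6982340 to 6982458, summit 6982356) was 119 bp wide, with rank 16, a signal of 1055 and its summit in an intron 275 bp into the gene. Replicate 2 held the second at rank 18 with a signal of 332.2 and a summit 1 bp away. The replicate 1 region that overlapped it had rank 1485, a signal of 43.3 and a summit 121 bp away, so the replicates differed in rank at this peak by more than at any of the other 13.

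The right copy, in intergenic sequence beyond the gene, carried a lower peak, with its summit 3242 bp from the 5′ end of F31E3.6. It had rank 195, a signal of 211.7 and a width of 345 bp, and its summit lay 3175 bp from that of rank 15. The replicates ranked it 160 and 310, with signals of 152.3 and 59.9, and their summits lay 18 and 55 bp from the combined summit. The left copy exceeded the right by 5.46 times in combined signal, 5.22 times in replicate 1 and 5.99 times in replicate 2. The copies differed by 1 base over 375 aligned bases and by a gap of 11. Other optimal peaks in the window had ranks 48 and 300. Rank 48 had a signal of 414.8 and lay 807 bp upstream of a 5′ end of ceh-20, which encodes a homeodomain protein of the PBX class. Rank 300 had a signal of 168.4 and lay 1911 bp upstream of prk-1.

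At B0393.8 the copies also differed in signal, but here the right copy was the higher. The genes lie at chromosome III 4749794 to 4750286 on the plus strand and 4751878 to 4752370 on the minus strand, so that each begins near its copy. The right copy had an optimal peak (4752623 to 4753050, summit 4752772) of rank 67, signal 349.2 and width 428 bp, 402 bp upstream of the right gene. The replicates ranked it 61 and 71, with signals of 247.3 and 114.6 and summits within 1 bp. The left copy had no optimal peak. Its region in the combined list (4749211 to 4749469, summit 4749332) had rank 1264 and a signal of 70.1, with the last optimal peak and the first region outside the list both at 72.2. The replicates ranked it 2760 and 769, with signals of 33.3 and 35.6. The right copy exceeded the left by 4.98 times in combined signal, 7.44 times in replicate 1 and 3.22 times in replicate 2. The copies had no mismatch over 365 aligned bases and a gap of 10.

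Stronger peaks stood beyond the B0393.8 palindrome in sequence with no copy. Rank 14, with a signal of 1428, lay 12 bp upstream of the non-coding RNA gene B0393.12, 60 bp upstream of rbg-3 and 313 bp upstream of rps-0, which encodes a protein of the small ribosomal subunit. Rank 17, with a signal of 1016, lay 81 bp upstream of fbxl-2, which encodes an F-box protein with leucine-rich repeats. They were 1592 and 4407 bp from the summit of rank 67. All peaks from rank 12 to rank 18 of the optimal list thus lay in these windows, 4 at copies and 3 away from them. The genes were chosen with these ranks known.

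The dolk-1 window differed from the others in that its copies lay far from the gene. The gene lies at chromosome III 11929343 to 11933639 on the minus strand, and the optimal summits were 5799 and 6570 bp upstream of its 5′ end. Both fell in an intron of Y56A3A.7, annotated in RefSeq as a homeobox protein of the cut-like kind. The right copy (11940116 to 11940245, summit 11940209) had rank 35, a signal of 492.3 and a width of 130 bp. The left copy (11939270 to 11939511, summit 11939438) had rank 37, a signal of 488.0 and a width of 242 bp. In replicate 1 the left and right copies had signals of 340.9 and 336.5, and in replicate 2 they had 151.6 and 161.7. The higher exceeded the lower by 1.01 times in the combined list and by 1.01 and 1.07 times in the replicates, and which copy was higher was not the same in both. The summits were 771 bp apart.

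Weaker regions at the dolk-1 copies were placed differently by the lists. Across the outer end of the right copy, replicate 1 had a region at rank 231 and replicate 2 at rank 215. The summits of these regions lay 44 and 48 bp beyond that end. The combined list had its nearest such region at rank 29583, with its summit 82 bp beyond the outer end. On the inner part of the left copy the combined list had a region at rank 1243 and replicate 2 at rank 374, and replicate 1 had none of its own.

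**Figure D2:**
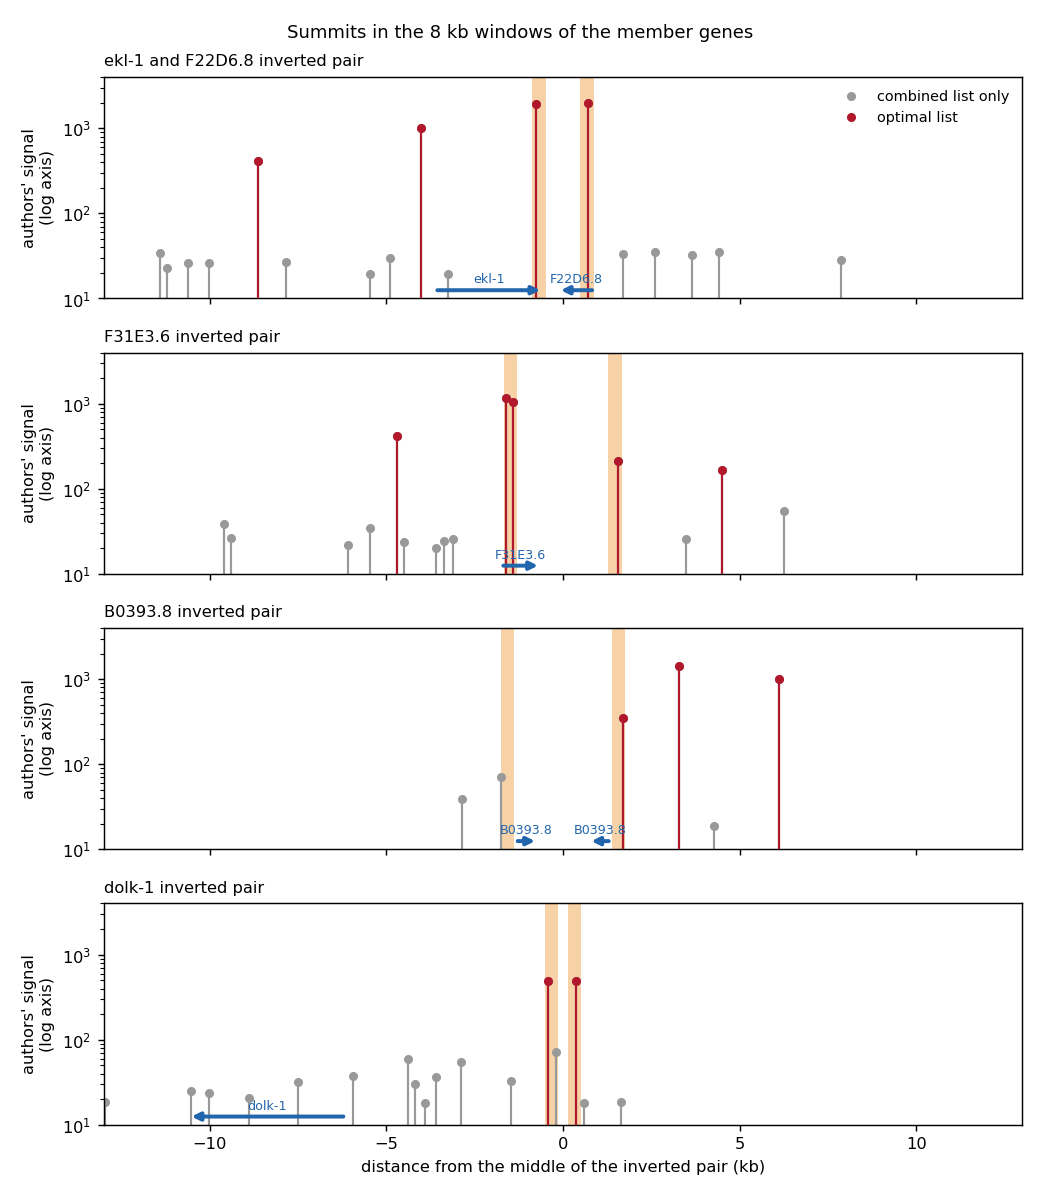
Signal of each summit on a log axis against its distance in kb from the middle of the inverted pair, for the 4 pairs. Red marks optimal peaks, grey marks regions of the combined list only, bands mark the copies and blue arrows mark the member genes. Optimal summits stand on 7 of the 8 bands, and the left B0393.8 copy has only a combined-list region at 70.1.

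Across the 8 copies the replicates gave nearly the same order. In both, the ekl-1 and F22D6.8 copies were highest, then the left F31E3.6 copy, then the dolk-1 copies, the right B0393.8 copy, the right F31E3.6 copy and the left B0393.8 copy. Only the dolk-1 copies exchanged places between the replicates. All 14 optimal peaks of the windows overlapped a region in both replicate lists, against 99.7% of all optimal peaks, so this share says nothing particular about them. Of the 14, 13 overlapped a region among the 1205 highest of each replicate, the exception being rank 16 at F31E3.6. The share of all optimal peaks that did so was not counted. The optimal list was itself selected for agreement of the replicates, so this count is a description only.

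**Figure D3:**
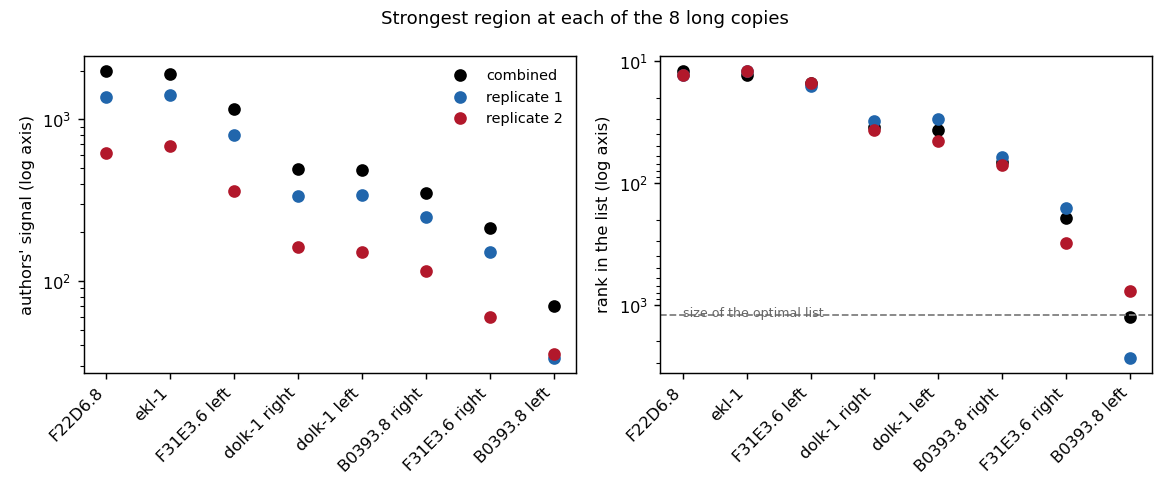
Signal (left) and rank (right) of the strongest region at each long copy in the combined list, replicate 1 and replicate 2, both on log axes, with the size of the optimal list as a dashed line. The left B0393.8 copy lies beyond rank 1205 in the combined list and in replicate 1, and at rank 769 in replicate 2.

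Summits did not lie at a fixed position in the copies. The strongest combined summit lay between 8 and 153 bp inward from the outer end of its copy. It was at 116 bp in the ekl-1 copy, 148 bp at F22D6.8, 48 bp in the left and 116 bp in the right F31E3.6 copy, 8 bp in the left and 58 bp in the right B0393.8 copy, and 92 bp in the left and 153 bp in the right dolk-1 copy. The other optimal summit on the left F31E3.6 copy, at rank 16, lay further inward, at 256 bp. Of the optimal peaks at copies, all but ranks 16 and 35 ran past the outer end of the copy into its flank. Rank 15, for example, began at 6981817, with the outer end of its copy at 6982100. What set the summit positions was not tested. Peaks at the copies also varied in width, from 119 to 581 bp. None of the 8 optimal peaks at copies had the width of 384 bp that 85.6% of all optimal peaks had, while 1 of the 6 peaks away from copies did. Among ranks 1 to 300, the share with that width was 44.7%.

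**Figure D4:**
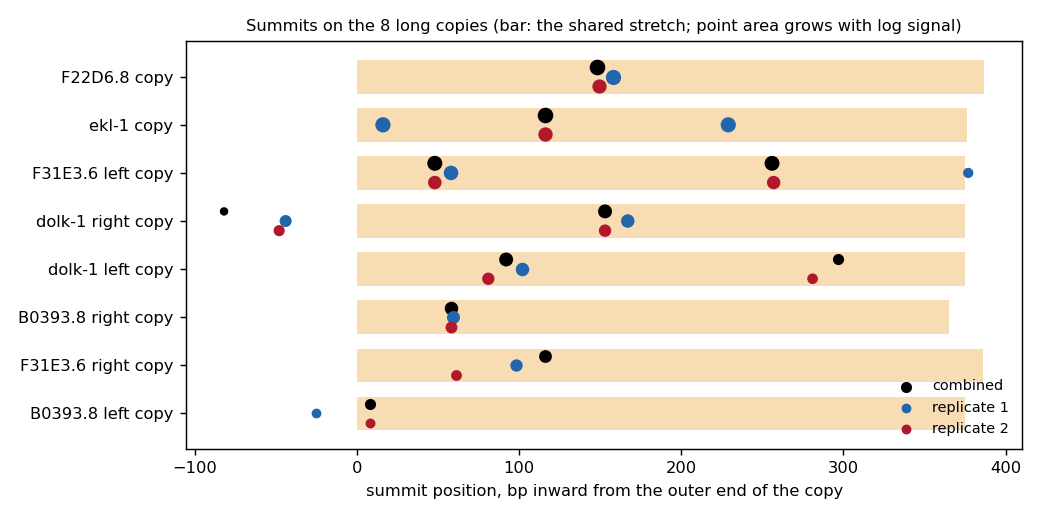
Summit positions in bp inward from the outer end of each long copy, for the combined list and both replicates, with bars for the shared stretch and point area growing with log signal. The strongest combined summits lie between 8 and 153 bp, and replicate 1 has 2 strong summits on the ekl-1 copy where the others have 1.

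How much of the shared stretch could be told from the rest of the genome differed between the copies. Of the words of 36 bases in the shared stretch, 40.9% occurred once in the genome at F22D6.8 and 37.0% at ekl-1, the copies with the highest signals. The share was 22.1% and 11.2% in the right and left dolk-1 copies, 10.6% in the left F31E3.6 copy and 6.06% in the right B0393.8 copy. No such word occurred once in the right F31E3.6 copy or the left B0393.8 copy, which had the lowest signals. Over the 8 copies, Spearman's rho between this share and the combined signal was 0.92, and it was 0.90 with words of 50 or 76 bases. The copies share most of their sequence and lie in pairs, so they are not independent points. They were also chosen for their peaks, and all word lengths use the same copies, so these values are a description only. Within 200 bp of the summits, flanks included, rho over the 8 optimal peaks at copies was 0.60 for words of 36 bases. It was 0.57 with 50 bases and 0.50 with 76. These 8 peaks leave out the left B0393.8 copy and hold the left F31E3.6 copy at ranks 15 and 16. The values over copies and over peaks are therefore not for the same points. Within 200 bp of the summits the share of 36-base words was 21.9% at both rank 16 and rank 195. It was 43.4% at rank 67 against 40.4% at rank 15. In the shared stretch, with words of 76 bases, the share was 75.4% and 73.1% at ekl-1 and F22D6.8. It was 19.6% in the right F31E3.6 copy and still 0 in the left B0393.8 copy. The read length is not given in the sources used here, and the part of sequence uniqueness in these signals was not tested. Within 200 bp of the summits of the 6 peaks away from copies every word of these lengths occurred once, as it did for the median of all optimal peaks.

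**Figure D5:**
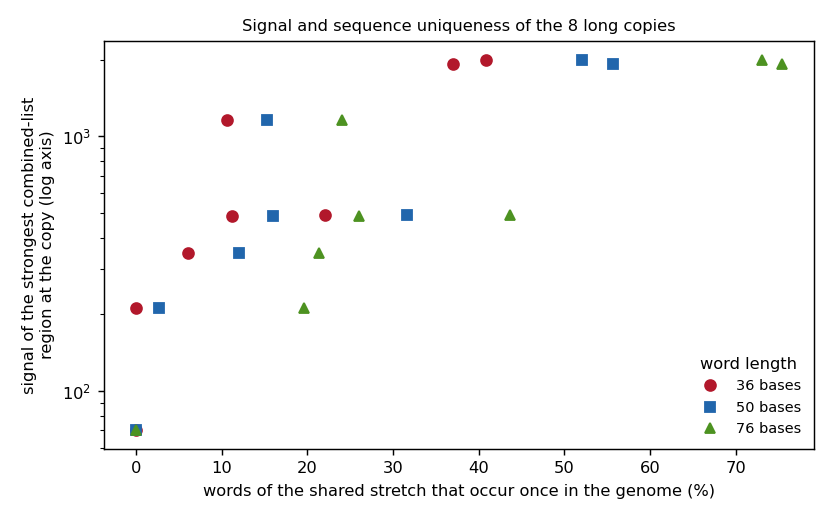
Signal of the strongest combined-list region at each of the 8 long copies (log axis) against the percent of words of the shared stretch that occur once in the genome, for words of 36, 50 and 76 bases. The copies with the largest share are the ekl-1 and F22D6.8 copies, and the left B0393.8 copy lies at 0 for all 3 lengths.

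Some words frequent at summits elsewhere occurred in all 8 long copies. Words of 8 bases were counted on both strands within 50 bp of each summit and in flanks 200 to 250 bp away. The copies had the same base in 339 of 387 alignment columns, so presence in all 8 is not 8 separate observations. Of 206 words present in all 8 copies, 103 had an excess at summits. The share among all words of 8 bases was not counted, so this count is a description only. The word with the largest excess, picked on these same data, was GCGAGACC. It was found only at the summit in 57 optimal peaks and only in the flanks in 3. It overlaps CGAGACCC and GGCGAGAC, which were also in all 8. Within 50 bp of the summit it occurred in 4.73% of all optimal peaks and in 4.51% of those not at copies. Among combined regions outside the optimal list the share was 0.472%. The word occurred in 3 of the 8 peaks at copies and in 4 of the 10 strongest optimal peaks. It lay 152 to 173 bp inward from the outer end in the copies, and 9 to 155 bp from the nearest combined summit. The most frequent summit word of the list, AGACGCAG, was in none of the 8 copies. GCGAGACC was not found within 200 bp of any of the 6 summits away from copies. Within 200 bp it occurred in 6.22% of all optimal peaks, so its absence there says nothing particular about these 6.

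The search also found shorter copies of the sequence. These were 9 stretches of 103 to 141 bp, each matching the outer part of the long copies and ending between bases 103 and 116 of it, before the position of GCGAGACC. They lay in introns of Y71A12B.10, of K01C8.2 as a pair and of lin-9 as a pair, near blos-7 and timm-17B.2, and as a pair at K07C5.13. The stretches of each pair lay on opposite strands. An optimal summit lay within 100 bp of 2 of the 9. The same held for 7 of the 8 long copies, a count set by the choice of the members and so no measure for comparison. The lin-9 stretch was at rank 618, with replicate ranks of 466 and 1356, and that at K07C5.13 was at rank 1002, with replicate ranks of 954 and 1233. The lin-9 gene encodes a subunit of the DRM complex, which represses transcription of many genes.

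Repeated sequence was uncommon among the optimal peaks as a whole. Of all 1205, 8.46% had a near-identical copy of the summit window elsewhere, 3.98% had a copy that itself bore an optimal summit within 100 bp, and 1.41% had an inverted copy within 5 kb. The 8 peaks at the long copies met all 3 descriptions, as they were chosen to be near such copies, and 5 of the other 1191 optimal peaks met the last 2. Those 5 ranked between 466 and 974. Inverted copies that overlap the sequence within 200 bp of the summit itself are left out of these counts. The peaks at the inverted lin-9 and K07C5.13 pairs, at ranks 618 and 1002, are not among those 5. With such overlapping copies counted, 7 of the 1191 met the last 2 descriptions. The 10 strongest optimal peaks with a copy elsewhere, outside the member windows, were nearest to mog-4, F58D12.3, simr-1, cyn-10, F40E3.3, F59C6.18, K10D2.5, rpl-7A, F58G1.7 and col-94. They ranked from 40, near mog-4 with a signal of 458.1, to 147, near col-94 with 238.1. Among them only the peak nearest to simr-1 had an inverted copy within 5 kb, and a copy with an optimal summit was found for those near mog-4, F40E3.3 and F59C6.18.

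The pathways of ekl-1 and dolk-1 were counted by the distance of summits from 5′ ends. An optimal summit within 500 bp of a 5′ end was found for 3 of 41 small RNA pathway genes matched by symbol and 5 of 25 genes of dolichol and N-glycan synthesis, against 5.51% of all protein-coding genes. Without the members ekl-1 and dolk-1, which were chosen for their peaks, the counts were 2 of 40 and 5 of 24, and neither list was tested. In the first list these were ekl-1, mut-15, which encodes a protein needed for RNA interference (rank 119, signal 266.8), and rrf-3, which encodes an RNA-dependent RNA polymerase (rank 1049, signal 79.1). In the second they were dpm-3, encoding a subunit of dolichol-phosphate mannosyltransferase (rank 109, signal 277.5), dad-1, encoding a subunit of oligosaccharyltransferase (rank 214, signal 204.0), algn-14 (rank 548), uggt-1, encoding a sensor of glycoprotein folding (rank 678), and algn-10 (rank 1171). The dolk-1 gene itself had no such summit.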

How the data were processed

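Per the file headers and companion text, the deposited regions were called on the aligned reads of each replicate, or of both combined, against a control alignment, as input for the irreproducible discovery rate, which the optimal list was thresholded on. The sources used here do not name an aligner, a caller, a read length or a cutoff. Signal is the authors' deposited value. The −log10 q deposited by the authors was the same in every optimal peak and was not used to order them. Only ce11 lists were used, and all regions lay inside the chromosomes of the WBcel235 sequence. Copies were found with blastn 2.17.0 (low-complexity filter on, hits overlapping the query's own window left out, overlapping hits merged) and aligned with MAFFT 7.526. Long copies were those of 250 bp or more. Genes came from Ensembl release 115. The search was tested on simulated sequence. No statistical test was made. The members, gene lists, words and alternatives were chosen with earlier results of these data known. Genes named besides the members lay within 500 bp of an optimal summit of a window, or nearest to another copy or to up to 10 other peaks with copies, or were list members with a promoter peak. The gene prk-1, at rank 300, was named after its values were seen. The alternatives were other window sizes, identities, lengths, overlaps and each replicate alone.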

Additional observations from a re-analysis of the deposited data

How the results depend on the processing

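Counts over windows and copies followed their size limits. With windows of 2 and 16 kb in place of 8 kb, the optimal summits numbered 7 and 24 in place of 14, and the combined-list summits 23 and 102 in place of 58. The copies numbered 10 at 95% identity and 8 at a minimum of 200 bp, in place of 17. With 100 bp in place of 200 bp on each side of the summit, 62 optimal peaks had a copy elsewhere in place of 102. With promoters of 1000 bp, 5 small RNA pathway genes had a peak in place of 3, ekl-1 included. In an alternative added after seeing the data, inverted hits inside the summit's own window were counted, and 21 optimal peaks had an inverted copy within 5 kb in place of 17. The other settings stayed within 1.5 times. Without each replicate in turn, the optimal summits held numbered 14 and 14, and the copies with a summit 8 to 10 in place of 9. Where the summits had to lie within 100 bp, 13 of 14 were held by both replicates, and where the overlap had to reach 50% of both regions, 11 were. The shares of all optimal peaks under these 2 settings were not counted. No paired analysis was possible because the study has a single group. The read depth is unknown, and with 2 replicates no spread beyond their values can be given.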
